A study of Mus musculus with 4 samples.

Results

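Phase II enzymes join a polar group to drugs, steroids, bile acids and reactive metabolites, and this account describes 3 of their gene families in the liver of fasted mice: the glutathione transferases (GST), the UDP-glucuronosyltransferases and their relatives (UGT) and the cytosolic sulfotransferases (SULT). The members are the probe sets that the array platform's annotation gives exactly 1 gene symbol of these families, whether or not the gene changed: symbols starting with Gsta, Gstk, Gstm, Gsto, Gstp or Gstt and a number, with Mgst and a number, with Ugt1, Ugt2 or Ugt3, or with Sult and a number. There were 58 such probe sets of 45101 on the array, for 45 genes (22 GST, 10 UGT and 13 SULT) of the 18194 that have a probe set of their own. Liver RNA of 4 male C57BL/6J mice, all 12 weeks old, on normal chow and without food for 24 h, was measured on 1 Affymetrix array each. The groups were 2 wild-type mice and 2 mice heterozygous at Cnot3 (Cnot3+/-), whose protein belongs to the deadenylase complex CCR4-NOT, which removes poly(A) tails from mRNA. The labels call the mice of a genotype biological replicates and do not describe the altered allele. Each array goes by its genotype and the replicate number of its label (wild-type 1 or 2, Cnot3+/- 1 or 2), and 4 values in a row are always in this order.

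A glutathione transferase attaches the tripeptide glutathione to an electrophile, a UGT attaches a sugar taken from a UDP-sugar, and a sulfotransferase attaches a sulfo group taken from the activated sulfate PAPS. Hepatocytes express members of all 3 families in large amounts, and many of the genes are known targets of the xenobiotic sensors CAR, PXR and AHR and of the oxidant sensor NRF2. In the mouse the mu-class glutathione transferase genes stand side by side on chromosome 3 in the order Gstm5, Gstm7, Gstm6, Gstm3, Gstm2, Gstm1, Gstm4. Ugt3a1 and Ugt3a2 are neighbours on chromosome 15, and 8 of the UGT members lie in 1 unbroken row on chromosome 5. These orders are those of the gene table of assembly GRCm38.p6. Gene families of this kind are close in sequence, so a probe set can read the transcript of a sister gene, most of all where its name ends in _x_at or _s_at.

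The sequences before 5 genes are shown because these genes recur in the values described further on. A link between sequence and values was not tested. The genes are Gstm1, Gstm3 and Gstm4, which varied together between animals, and their neighbour Gstm2. Gstm2 shared their gap within Cnot3+/- but not within wild-type. The last is Ugt3a1, which had the largest difference between genotypes among the UGT genes. Each run holds the 250 bases before the outermost annotated start of the gene, 5′ to 3′ on the gene's strand, from RefSeq on GRCm38.p6. They lie at chr3:108017974-108018223, chr3:107986421-107986670, chr3:107969175-107969424 and chr3:108044860-108045109, all on the minus strand, and at chr15:9279579-9279828 on the plus strand. Capitals mark matches, on either strand, to 1 of 4 short motifs: the core of the antioxidant response element TGACNNNGC, the core of the xenobiotic response element GCGTG, an HNF1 hexamer GTTAAT and a nuclear receptor hexamer AGGTCA.
Gstm1: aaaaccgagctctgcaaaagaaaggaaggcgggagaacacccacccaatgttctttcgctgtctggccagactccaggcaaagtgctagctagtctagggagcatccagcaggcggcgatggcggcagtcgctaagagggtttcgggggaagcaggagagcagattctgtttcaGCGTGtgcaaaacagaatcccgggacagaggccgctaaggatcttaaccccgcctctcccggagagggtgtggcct
Gstm2: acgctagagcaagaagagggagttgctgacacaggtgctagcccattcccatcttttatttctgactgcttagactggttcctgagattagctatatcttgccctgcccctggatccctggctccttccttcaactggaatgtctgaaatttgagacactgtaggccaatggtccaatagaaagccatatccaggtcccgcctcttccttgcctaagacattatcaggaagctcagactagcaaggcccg
Gstm3: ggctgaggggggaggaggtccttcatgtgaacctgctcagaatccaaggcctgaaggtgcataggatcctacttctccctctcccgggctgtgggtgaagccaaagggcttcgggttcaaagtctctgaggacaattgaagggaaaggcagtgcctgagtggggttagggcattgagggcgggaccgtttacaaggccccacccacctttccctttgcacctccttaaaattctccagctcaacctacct
Gstm4: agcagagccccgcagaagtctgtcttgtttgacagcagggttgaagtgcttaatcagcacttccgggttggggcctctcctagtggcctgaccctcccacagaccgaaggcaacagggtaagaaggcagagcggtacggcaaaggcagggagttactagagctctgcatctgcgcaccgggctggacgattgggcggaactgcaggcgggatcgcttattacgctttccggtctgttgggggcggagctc
Ugt3a1: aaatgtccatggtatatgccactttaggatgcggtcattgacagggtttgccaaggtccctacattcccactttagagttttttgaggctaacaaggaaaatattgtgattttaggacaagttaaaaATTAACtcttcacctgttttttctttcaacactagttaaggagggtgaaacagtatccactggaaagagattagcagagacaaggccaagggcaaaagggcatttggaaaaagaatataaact
Gstm1 held 1 match to the xenobiotic response element core and Ugt3a1 held 1 HNF1 hexamer, read on the opposite strand, while the runs of Gstm2, Gstm3 and Gstm4 held no match to these letters.

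Over the members, 40 of 45 genes had a RefSeq promoter window (250 bases before to 50 after a start, any of the gene's windows counting), and the share with each motif was set beside that of all 27025 genes with a window. The nuclear receptor hexamer was in the windows of 10 of 40 members, against 18.1% of all genes. It was in 2 of 20 GST genes, 3 of 11 SULT genes and 5 of 9 UGT genes. The GST genes were Gstk1 and Gstm1, in the latter outside the run printed above. The UGT genes were Ugt2b5, Ugt2b35, Ugt2b36, Ugt2b37 and Ugt2b38. These 5 are sister genes in the same row on chromosome 5. The HNF1 hexamer was in 5 of 40 members (8.24% of all genes), the xenobiotic response element core in 9 of 40 (35.2%) and the antioxidant response element core in 4 of 40 (14.0%). The members with the antioxidant core were Gsta3, Gstm5, Gstm7 and Mgst1. The motifs overlap other sites, and a match is a match of letters only. The 300-base windows at the outermost starts of the 7 Gstm genes were not close to each other. Every pair had an identity between 44.8% and 48.1% in a global alignment with gaps counted as differences.

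Before any comparison, the arrays were checked for the labelled tissue, the targeted gene and other cell types. The deposited log2 values were in the RMA scale, with array medians between 4.62 and 4.66. The hepatocyte markers tested (10 of 12) had a mean log2 level between 13.17 and 13.44 on the 4 arrays. Cnot3 stood at 7.48, 8.14, 7.70 and 7.86, so its transcript level does not bear out the genotype labels. No source used here says which part of the gene its probes read. Cnot3+/- 2 stood apart in its content of macrophage markers, whose 12 tested genes had mean levels of 7.95, 8.17, 7.72 and 9.85. Lymphocyte markers (8 of 12 tested) stood at 4.99, 4.86, 4.74 and 5.57. The lymphocyte genes were split, with Nkg7 at 4.62, 3.98, 3.99 and 6.85 and Cd79a at 5.16, 4.93, 5.08 and 4.76. Stellate cell and fibroblast markers (12 of 12 tested) stood at 7.33, 7.27, 6.94 and 7.78, and sinusoidal endothelial markers (11 of 11 tested) at 7.73, 7.90, 6.90 and 7.78, with Cnot3+/- 1 lowest in both. The stellate cell and fibroblast genes were split too, with Col3a1 at 7.23, 6.71, 6.82 and 8.57 and Reln at 9.33, 9.40, 8.63 and 9.36. Neutrophil markers (8 of 10 tested) stood at 4.86, 4.86, 4.88 and 5.19. Cholangiocyte markers (4 of 9 tested) ran from 4.40 to 4.73 and erythroid markers (2 of 5 tested) from 6.87 to 7.06. In whole liver, fewer cells of a type and less RNA per cell cannot be told apart.

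No GST, UGT or SULT gene passed the test between genotypes. Of the 45 genes, 38 had a probe set above the filter on dim signal and were tested (21 GST, 10 UGT and 7 SULT), and 0 of 38 had a limma adjusted p below 0.05, where 2 of 13379 genes passed over the whole array (0.0149%). The lowest adjusted p of a member was 0.999. At an unadjusted p below 0.05 there were 2 members higher, Gstm2 and Sult5a1, and 0 lower, against 1.73% and 1.85% of all genes. Each difference is the Cnot3+/- mean less the wild-type mean in log2 units, with n = 2 per group and limma's moderated standard error (SE).

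The values mostly lay close together. For 32 of 38 genes the difference was smaller than 0.25 on the log2 scale, and the median difference was -0.04, against -0.01 over all genes tested. For 32 of 38 genes the 95% interval left out a 2-fold change in either direction, as it did for 92% of all genes. The genes whose interval reached 2-fold were Gsta4, Gstm1, Gstm2, Gstm3, Sult1b1 and Sult1c2. In 24 genes the difference was negative (13 GST, 7 UGT and 4 SULT) and in 14 positive. The median of the members turned to 0.02 without wild-type 1.

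**Figure D1:**
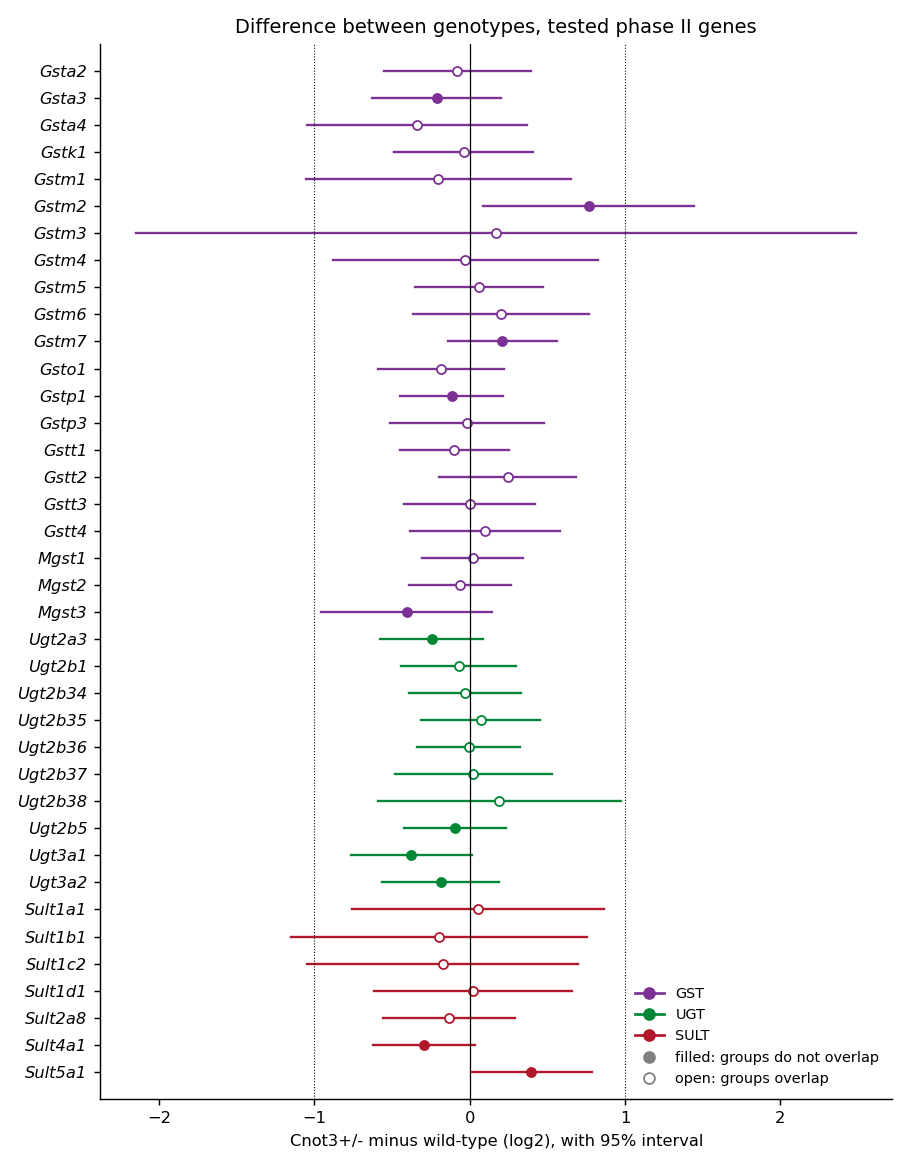
Difference between genotypes for the 38 tested genes (log2, points) with its 95% interval (lines), coloured by family, with dotted lines at 2-fold. Filled points mark the 11 genes whose genotypes did not overlap, and most intervals stay inside the dotted lines.

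The genotypes did not overlap in 11 of 38 genes (28.9%), against 31.5% of all genes tested. Both Cnot3+/- arrays lay above both wild-type arrays in 3 genes (7.89%, background 14.1%) and below them in 8 (21.1%, background 17.4%). By family, 2 of 21 GST genes were higher and 3 lower, 0 of 10 UGT genes higher and 4 lower, and 1 of 7 SULT genes higher and 1 lower. Over all members these shares lie near those of the whole array, and the families are too small for a share of their own to be read.

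Among the glutathione transferases, Gstm2, a mu-class enzyme gene, had the largest difference of all members. It stood at log2 levels of 8.32, 8.31, 8.70 and 9.46. Both Cnot3+/- arrays lay above wild-type, with Cnot3+/- 2 far the higher, and the difference was 0.77 (SE 0.27, 95% interval 0.09 to 1.44, limma adjusted p = 0.999), a factor of 1.70. It was 0.39 without Cnot3+/- 2 and 1.14 without Cnot3+/- 1. Cnot3+/- 2 was also the array with the highest mean level of macrophage, lymphocyte and stellate cell markers. The part of these cells in the Gstm2 value was not tested. Gstm7, another mu-class gene, stood at 8.45, 8.29, 8.62 and 8.54 on the 4 arrays, a difference of 0.21 (SE 0.14). A second, dimmer Gstm7 probe set went the other way, at 5.80, 5.80, 5.65 and 5.71.

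Mgst3, which encodes a membrane-bound glutathione transferase with glutathione peroxidase activity, had the largest negative difference. It stood at 7.85, 7.89, 7.18 and 7.74, so the distance came mainly from Cnot3+/- 1, and the difference was -0.41 (SE 0.22, adjusted p = 0.999). It was -0.12 without Cnot3+/- 1 and -0.69 without Cnot3+/- 2. A dim second probe set of Mgst3 stood at 4.28, 4.35, 4.42 and 4.54, a difference of 0.17, opposite in sign. Gsta3, an alpha-class gene whose enzyme protects the mouse liver from aflatoxin, stood at 13.19, 12.86, 12.81 and 12.82 (difference -0.21, SE 0.16). Wild-type 1 alone stood clear of the other 3 arrays, and the difference was -0.05 without it. A second Gsta3 probe set showed the same picture, at 10.57, 10.08, 10.08 and 10.00. Gstp1, the pi-class enzyme gene that male mouse liver expresses strongly, stood at 14.46, 14.42, 14.28 and 14.37, a difference of -0.12 (SE 0.13).

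The brightest members of the remaining classes hardly differed between genotypes. Mgst1, which encodes the microsomal enzyme of the endoplasmic reticulum, stood at 14.01, 14.02, 14.01 and 14.06 (difference 0.02, SE 0.13, 95% interval -0.31 to 0.34). Gstt1, of the theta class, stood at 11.49, 11.60, 11.38 and 11.51 (difference -0.10, SE 0.14). Gsto1, of the omega class, which reduces dehydroascorbate, stood at 11.12, 11.06, 11.06 and 10.75, with Cnot3+/- 2 lowest (difference -0.18, SE 0.16). Gstk1, of the kappa class found in mitochondria and peroxisomes, stood at 10.75, 10.45, 10.69 and 10.43, where the gap between animals of a genotype exceeded the difference of -0.04 (SE 0.18). The other GST genes tested, namely Gsta2, Gsta4, Gstm5, Gstm6, Gstp3, Gstt2, Gstt3, Gstt4 and Mgst2, had overlapping genotypes and differences from -0.34 for Gsta4 to 0.24 for Gstt2. Gsto2 lay below the filter.

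**Figure D2:**
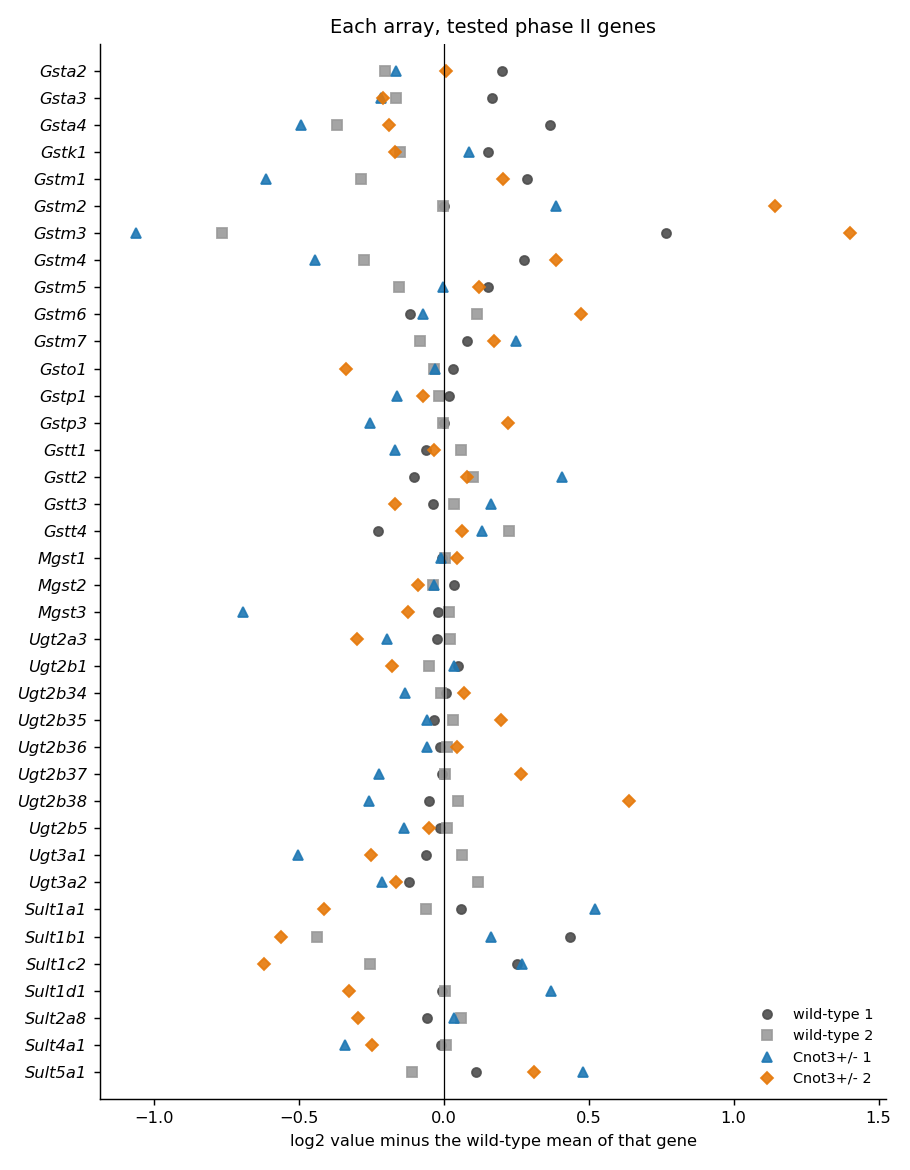
Log2 value of each array minus the wild-type mean of that gene, for the 38 tested genes, with 1 marker per array. The widest gaps between animals of 1 genotype are those of Gstm3, where wild-type 1 and Cnot3+/- 2 lie to the right and wild-type 2 and Cnot3+/- 1 to the left.

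The mu-class genes Gstm3, Gstm1 and Gstm4 differed more between animals of either genotype than between genotypes. Gstm3 stood at 9.13, 7.60, 7.30 and 9.76, high in wild-type 1 and Cnot3+/- 2 and low in the others. The wild-type animals were 1.53 apart and the Cnot3+/- animals 2.46 apart, while the genotypes differed by 0.17 (SE 0.91, 95% interval -2.15 to 2.49). The difference was -1.06 without Cnot3+/- 2 and 1.40 without Cnot3+/- 1, and it was -0.59 without wild-type 2 and 0.94 without wild-type 1. A second Gstm3 probe set, of the _s_at kind, gave the same order at 11.50, 9.96, 9.63 and 12.32. Gstm3 was the member with animals at least 2-fold apart in the wild-type group, where 0.553% of all genes were, and the member with animals that far apart in the Cnot3+/- group, where 3.23% were.

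Gstm1 and Gstm4 were likewise highest in wild-type 1 and Cnot3+/- 2, with wild-type 1 above Cnot3+/- 2 in Gstm1 and below it in Gstm4. Gstm1, the mu-class gene best known as abundant in liver, stood at 13.76, 13.19, 12.86 and 13.68, with gaps of 0.57 between the wild-type and 0.82 between the Cnot3+/- animals. The difference between genotypes was -0.20 (SE 0.34), and it was 0.21 without Cnot3+/- 1 and 0.08 without wild-type 1. All 4 probe sets of Gstm1 had wild-type 1 above wild-type 2 and Cnot3+/- 2 above Cnot3+/- 1. Gstm4 stood at 9.61, 9.06, 8.89 and 9.72, a difference of -0.03 (SE 0.34). A gap of at least 0.5 between wild-type 1 and 2, together with at least 0.5 between Cnot3+/- 2 and 1, was found in these 3 members of 38 and in 0.404% of all genes. This measure was chosen after the values were seen, and the count is a description. The 3 are sister genes, and a probe set of 1 of them may also bind the transcript of another, which was not tested.

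Gstm2, which lies between Gstm3 and Gstm1, shared the gap within Cnot3+/- but not that within wild-type: Cnot3+/- 2 lay 0.76 above Cnot3+/- 1, while the wild-type animals were 0.01 apart. In Gstm5 (8.17, 7.87, 8.02 and 8.14) both gaps ran in the direction of Gstm1 and were smaller, and Gstm6 stood at 8.95, 9.18, 8.99 and 9.54. The alpha-class gene Gsta4, whose enzyme conjugates the lipid peroxidation product hydroxynonenal, stood at 11.36, 10.63, 10.50 and 10.81, high in wild-type 1 alone. Among the 146 genes of the pathway lists described further on, 2 met the same measure. They were the quinone reductase gene Nqo1 at 6.33, 5.61, 5.70 and 6.73, and the efflux pump gene Abcb1b at 4.58, 3.93, 4.13 and 5.38. Among the marker lists, Col3a1, S100a8 and Nkg7 met it as well, all highest in Cnot3+/- 2. By any amount, wild-type 1 lay above wild-type 2 and Cnot3+/- 2 above Cnot3+/- 1 in 20.5% of all genes tested. The same held for 3 of 12 macrophage, 5 of 8 lymphocyte, 5 of 12 stellate cell and fibroblast and 3 of 8 neutrophil markers. It also held for 1 of 10 hepatocyte, 2 of 11 sinusoidal endothelial, 2 of 4 cholangiocyte and 1 of 2 erythroid markers. The part of other cell types in the Gstm values was not tested.

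**Figure D3:**
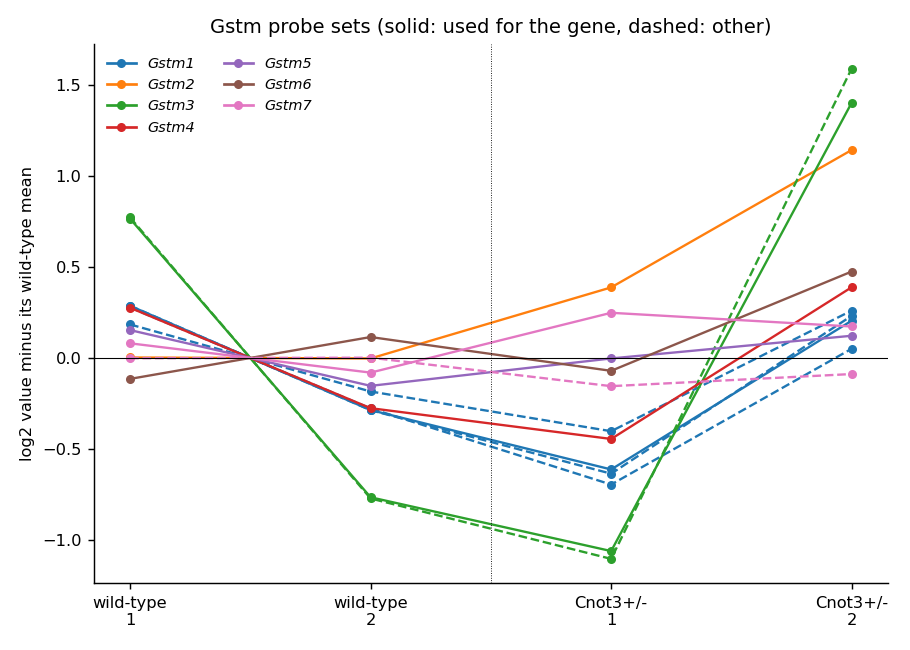
Log2 value minus its wild-type mean on the 4 arrays for the Gstm probe sets. Each line joins the values of 1 probe set, solid where it stood for the gene and dashed otherwise. Gstm1, Gstm3 and Gstm4 are high in wild-type 1 and Cnot3+/- 2, with Gstm3 farthest from its wild-type mean, and Gstm2 is flat in wild-type.

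Of the UGT genes, Ugt3a1 and its neighbour Ugt3a2 stood lower on both Cnot3+/- arrays. Enzymes of this subfamily use sugars other than glucuronic acid, N-acetylglucosamine in the case of UGT3A1. Ugt3a1 stood at 9.68, 9.81, 9.25 and 9.50, without overlap, a difference of -0.38 (SE 0.15, 95% interval -0.77 to 0.01, limma adjusted p = 0.999). Its second probe set, of the _s_at kind, stood at 9.89, 9.64, 9.25 and 9.45, a difference of -0.42. Over the arrays left out in turn the first probe set ran from -0.50 to -0.25. Ugt3a2 stood at 11.94, 12.18, 11.85 and 11.90, a difference of -0.19 (SE 0.15) that was -0.07 without wild-type 2. The genes are sister genes, and a probe set of either may also bind the other's transcript.

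Ugt2a3 was the third UGT gene below wild-type on both arrays, and Ugt2b5 the fourth. Ugt2a3, whose enzyme is found in liver and intestine, stood at 10.92, 10.96, 10.75 and 10.64, close together within each genotype, with a difference of -0.25 (SE 0.13). Ugt2b5 stood at 13.42, 13.45, 13.30 and 13.38, a difference of -0.09 (SE 0.13). Ugt2b38 was the UGT gene with the largest gap between animals, at 8.84, 8.94, 8.63 and 9.53. Cnot3+/- 1 lay below and Cnot3+/- 2 above both wild-type arrays, and the difference of 0.19 (SE 0.31) turned to -0.26 without Cnot3+/- 2. Ugt2b37 (6.09, 6.10, 5.87 and 6.36) had the same order with smaller gaps. The other UGT2B genes, Ugt2b1, Ugt2b34, Ugt2b35 and Ugt2b36, overlapped between genotypes with differences between -0.07 and 0.07. The wild-type animals were close in this family, with a median gap of 0.06 over the 10 UGT genes against 0.18 over all genes, while the Cnot3+/- animals were 0.21 apart against 0.18.

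The sulfotransferase genes of the SULT1 group varied between the Cnot3+/- animals in the opposite sense to Gstm1, Gstm3 and Gstm4. Sult1a1, the phenol sulfotransferase gene, stood at 11.49, 11.37, 11.95 and 11.02, so that the Cnot3+/- animals lay on either side of wild-type. The difference of 0.05 (SE 0.32) was -0.41 without Cnot3+/- 1 and 0.52 without Cnot3+/- 2. Sult1c2 stood at 5.84, 5.34, 5.86 and 4.97, with a difference of -0.17 (SE 0.34) that was -0.62 without Cnot3+/- 1 and 0.27 without Cnot3+/- 2. Sult1b1, whose enzyme acts on phenols and thyroid hormones, stood at 8.09, 7.22, 7.82 and 7.09. Sult1d1, whose enzyme acts on catecholamines, stood at 11.41, 11.42, 11.79 and 11.09, and at 9.61, 9.43, 10.04 and 9.33 on its second probe set. Cnot3+/- 1 lay at least 0.5 above Cnot3+/- 2 in these 4 genes, in 0 of the 34 other members tested, and in 3.23% of all genes. Conversely 7 of the 38 members had Cnot3+/- 2 at least 0.5 above Cnot3+/- 1 (8.17% of all genes), 6 of them GST genes. Both measures were chosen after the values were seen. Over the 7 SULT genes tested, the median gap was 0.70 in Cnot3+/- and 0.12 in wild-type, against 0.18 in each group over all genes. That Cnot3+/- median follows from the 4 SULT1 genes, which are most of the 7 and were picked for their gap. Outside SULT1, Cnot3+/- 2 minus Cnot3+/- 1 was -0.33 in Sult2a8, 0.09 in Sult4a1 and -0.17 in Sult5a1.

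**Figure D4:**
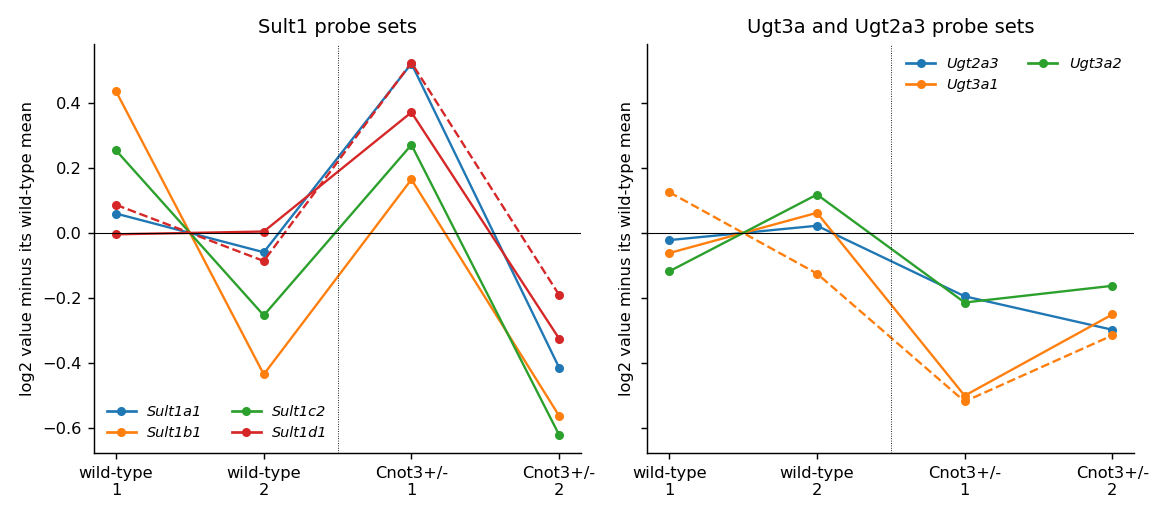
Log2 value minus its wild-type mean on the 4 arrays for the Sult1 probe sets (left) and the Ugt3a and Ugt2a3 probe sets (right). Each line joins the values of 1 probe set, dashed where another one stood for the gene. The Sult1 lines are higher in Cnot3+/- 1 than in Cnot3+/- 2, and those of Sult1b1 and Sult1c2 are also high in wild-type 1. The Ugt3a and Ugt2a3 lines are below the wild-type mean on both Cnot3+/- arrays.

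Outside the SULT1 group, Sult5a1, a gene without a well-described substrate, stood higher on both Cnot3+/- arrays. It stood at 7.08, 6.86, 7.45 and 7.29, a difference of 0.40 (SE 0.15, 95% interval 0.01 to 0.79, limma adjusted p = 0.999), and leaving out 1 array moved it between 0.29 and 0.51. Sult4a1, which is known from brain, stood at 4.68, 4.70, 4.35 and 4.45 (difference -0.29, SE 0.13), close to the median signal of the arrays. Sult2a8, the bile acid sulfotransferase gene of mouse liver, stood at 12.67, 12.79, 12.76 and 12.43, with Cnot3+/- 2 lowest (difference -0.13, SE 0.17), and it was 0.03 without that array. Sult1c1, Sult1e1, Sult2a2, Sult2b1, Sult3a1 and Sult6b1 lay below the filter, with group means between 2.27 and 3.81 that are too dim to compare.

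The genes that supply, assist and control these enzymes were read from 8 lists of 146 tested genes. Those named, other than Cyp1a1, are of the largest differences without overlap in their list. In limma 0 of 146 passed, and at an unadjusted p below 0.05 there were 0 higher and 7 lower, against 1.73% and 1.85% of all genes. Without overlap 14 were higher (9.59%) and 24 lower (16.4%), against 14.1% and 17.4% of all genes. In the list for UDP-glucuronic acid, 2 of 7 genes were higher without overlap and 0 lower, with a median difference of 0.01. They were Ugdh, which makes UDP-glucuronic acid, at 11.17, 11.30, 11.43 and 11.94 (difference 0.44, SE 0.21), and Gulo, of the ascorbate branch that starts from it, at 10.70, 10.98, 11.13 and 11.31 (0.38, SE 0.16). In the list for sulfate supply, 2 of 12 were higher and 2 lower, with a median of -0.11, and the largest were Tst at -0.22 and the sulfate carrier gene Slc26a1 at 0.16. In the list for glutathione synthesis, 2 of 19 were higher and 1 lower, with a median of 0.11, and the larger of these was Cth, of cysteine synthesis, at 0.31 (SE 0.20).

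Among other glutathione-using enzymes, 3 of 16 were higher and 4 lower (median -0.07), with Gpx3 at 0.48 (SE 0.25) the largest. The list of other conjugating enzymes and esterases had 20 of 24 differences below 0, against 52.1% of all genes, with 0 genes higher and 6 lower without overlap and a median of -0.19. Its mean relative to wild-type was 0.13, -0.13, -0.06 and -0.29 on the 4 arrays, so Cnot3+/- 1 lay between the wild-type arrays. Its largest were the carboxylesterase genes Ces1e at -0.55 (SE 0.22) and Ces1d at -0.47 (SE 0.13). Ces1d stood at 12.49, 12.51, 12.03 and 12.03. Of the regulators, 3 of 29 were higher and 5 lower (median 0.05). Bcl6, a repressor of female-biased genes in male liver, stood at 6.87, 7.93, 6.35 and 6.55 (difference -0.95, SE 0.36), and the dioxin receptor gene Ahr at 7.65, 8.28, 9.07 and 8.35 (0.74, SE 0.32). Of the transporters, 1 of 19 was higher and 2 lower (median 0.12), the largest being Slco1a4 at -1.18 (SE 0.14). Of the phase I partner enzymes, 1 of 20 was higher, Cyp1a2 at 0.40 (SE 0.20), and 4 were lower, with Cyp2c29 the largest at -0.37 (SE 0.13). The median was 0.00. Cyp1a1, a relative of Cyp1a2, was among the lower ones, dim at 4.50, 4.49, 4.18 and 4.27 (-0.27, SE 0.13).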

How the data were processed

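Liver RNA of 4 mice was measured on 1 one-colour Affymetrix array each. The authors' deposited values are log2 expression made by RMA, which the submitters' processing notes name without a version, and the log2 scale itself was read from the values. RMA shrinks differences of dim probe sets. All 4 value columns were mapped through the labels.

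Of 45101 probe sets, 34958 had 1 gene symbol in the platform annotation, 932 had several and 9211 had none. Ugt1a genes share probe sets with several symbols and are therefore no members. Probe sets in the lowest 40% of mean value (below 4.06) were left out, and each gene was read through its probe set of highest mean, with _x_at and _s_at probe sets used only where a gene had no other, which gave 13379 genes. Linear models (lmFit, eBayes) were fitted to them in limma 3.58.1 under R 4.3.3, without covariates, two-sided, with Benjamini-Hochberg adjustment and a threshold of 0.05. The prior added 3.17 degrees of freedom (prior SD 0.16) to 2 residual ones. The number of arrays limits the precision of every value. The fit was tried on simulated data with planted differences, each larger than that of any member. That trial does not bear on differences of the members' size. Lists were described by counts and medians, with no set test. Promoter windows came from RefSeq and were aligned with Biopython 1.88.

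Named with all 4 values were members past the threshold, the 8 largest differences without overlap in each direction, the member of highest mean in each subfamily, the 4 largest gaps between animals and members whose probe sets disagreed by 0.5 or more. Of each list some of the 2 largest differences without overlap were named. Gsta4, Gstm4, Gstm5, Gstm6, Sult1b1, Sult1d1, Ugt2b37, Nqo1, Abcb1b, Cyp1a1, Col3a1, Reln, S100a8, Nkg7 and Cd79a were named after their values were seen. The alternatives were other filters on dim probe sets, quantile normalization, other treatments of a gene's probe sets, other variance moderation, the replicate number as a block, and each array left out. Members and lists were chosen with earlier results of these data known.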

Additional observations from a re-analysis of the deposited data

How the results depend on the processing

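No member passed under any of the 13 alternatives. The difference of Gstm2 was largest without Cnot3+/- 1, at 1.14, where Cnot3+/- 2 alone stood for its genotype. The count of all genes past the threshold, 2, became 1 without variance moderation and 0 with the replicate number as a block, and ranged from 0 to 38 with 1 array left out, the 38 arising without Cnot3+/- 1. Of wild-type 1 minus 2 and Cnot3+/- 1 minus 2, the correlation over genes was 0.16, and with 2 pairs of separate animals the number is not taken to pair the samples. The block could not alter the 3 higher and 8 lower members without overlap or the median of -0.04. Overlap is read from the array values, and each block holds 1 array of each genotype. With 1 array left out, 1 array stands against 2. Without wild-type 1, 5 of 38 members were higher without overlap (28.5% of all genes) and 11 lower (32.8%). The counts were 6 (32.6%) and 17 (36.7%) without wild-type 2. They were 13 (31.8%) and 18 (36.3%) without Cnot3+/- 1, and 8 (30.1%) and 20 (33.8%) without Cnot3+/- 2. Each percentage is the share of all genes, not of the members. The median of the members ran from -0.077 to 0.016 over these settings. Among the 21 named members, 264 values kept their direction and 18 reversed. Many of the 264 could not have changed. The filters, the variance settings and the block leave the difference of a named member as it was. Mgst1 reversed to -0.0079 after quantile normalization, to -0.033 with probe sets averaged and to -0.084 on its other probe set. Gstm7 was -0.12 and Mgst3 0.17 on other probe sets. With 1 array left out, Gstk1 ran from -0.19 to 0.11, Gstm1 from -0.61 to 0.21, Gstm3 from -1.06 to 1.40, Mgst1 from -0.0073 to 0.046, Sult1a1 from -0.41 to 0.52, Sult1c2 from -0.62 to 0.27, Sult2a8 from -0.30 to 0.034 and Ugt2b38 from -0.26 to 0.64. Sult1a1 was -0.01 without wild-type 2 and Sult1c2 0.08 without wild-type 1. Gstk1 was 0.09 without Cnot3+/- 2. The cause was not tested.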

Other observations

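Probe sets shared by several symbols of these families are no members and entered no comparison. The 3 probe sets for the Ugt1a genes, which include the bilirubin-conjugating enzyme gene Ugt1a1, stood at 13.32, 13.48, 13.35 and 13.41, at 12.58, 12.92, 12.63 and 13.00, and at 12.84, 13.02, 12.83 and 13.00 in wild-type 1, wild-type 2, Cnot3+/- 1 and Cnot3+/- 2. Their differences between genotypes were -0.02, 0.06 and -0.01. A probe set shared by Gsta1, Gsta2 and Gm3776 stood at 12.37, 11.37, 11.36 and 12.12, high in wild-type 1 and Cnot3+/- 2 and low on the other arrays, as Gstm1, Gstm3 and Gstm4 were. The probe set of Gsta2 alone stood at 12.28, 11.88, 11.92 and 12.09. A probe set shared by Ugt2a1 and Ugt2a2 was dim, at 4.10, 4.12, 4.01 and 3.86.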
